A study of Mus musculus with 39 samples.

Results

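The unfolded protein response and the integrated stress response were followed through 37 genes, out of 18194 genes that had a probe set named by 1 gene symbol alone. The members were picked by symbol, and each was read in each tissue from its probe set of highest mean intensity, except Ern1, for which all 5 probe sets were read. The 37 genes had 91 probe sets, with 1 for each of 9 genes and several for each of the other 28. The mice were B6C3F1, the cross of C57BL/6 with C3H, and were sampled at 2 hours, under reduced oxygen or as controls. Bone marrow was taken from a humerus, liver from the left lateral lobe, and spleen as a part of a cross-section. There were 39 arrays: 8 controls and 8 under reduced oxygen for liver, as many for spleen, and 3 controls and 4 under reduced oxygen for bone marrow. The titles call the control arm vehicle without naming a substance and the other arm hypoxia. The labels used here name no allele, age, sex or oxygen level, and no mouse for any array, so the p-values reflect how these samples vary, in part perhaps for technical reasons. Each value is a log2 intensity, and each change is the log2 difference, reduced oxygen minus control, within a tissue.

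The endoplasmic reticulum (ER) folds secreted and membrane proteins. When unfolded proteins accumulate there, 3 sensors in its membrane signal to the rest of the cell: IRE1 (Ern1), which splices the Xbp1 transcript, PERK (Eif2ak3), which phosphorylates the translation factor eIF2, and ATF6, which is cleaved into a transcription factor. The integrated stress response is the arm that runs through eIF2 and is shared with GCN2 (Eif2ak4), the kinase that senses uncharged tRNA. It lowers general translation while raising that of ATF4, which then drives amino acid supply genes and feedback genes. Hepatocytes and plasma cells are known for a heavy secretory load, and low oxygen is a known trigger of both responses in cultured cells. Splicing of Xbp1, phosphorylation of eIF2 and cleavage of ATF6 happen without a change in transcript level and were not measured on these arrays.

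Of 12 textbook hypoxia targets, liver had 8 called higher (of 12 tested), bone marrow 5 (of 11) and spleen 6 (of 11), and none was lower. Of all genes tested, 3.88%, 2.76% and 6.84% were called higher, in the same order. Hepatocyte markers had a mean log2 intensity of 14.18 in control liver arrays, 5.15 in bone marrow and 5.28 in spleen. Several arrays stood apart from the rest of their group. The summed intensity of 11 pancreatic acinar markers was 85631 in spleen control 5 and 15566 in spleen reduced oxygen 2, against 867 to 1844 in the other spleen arrays. The mean log2 intensity of 12 erythroid markers ran from 9.06 to 12.42 in control spleens and from 10.76 to 12.38 under reduced oxygen. The summed intensity of 14 neutrophil markers was 4212 to 16402 in 5 of 8 reduced oxygen livers and at most 1432 in every other liver array. In tissue samples such as these, fewer cells of a type and less RNA per cell cannot be told apart.

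Most of the 37 genes did not pass the test in any tissue after 2 hours of reduced oxygen, and 2 passed it in all 3 tissues, Herpud1 higher and Ern1 lower. In liver 6 of 35 tested members were called at an adjusted p under 0.05, 4 higher and 2 lower, where 11.1% of the 12736 genes tested in that tissue were called, 3.88% higher and 7.22% lower. In bone marrow 2 of 36 were called, 1 in each direction, where 7.69% of all genes tested were, 2.76% higher and 4.92% lower. In spleen 6 of 36 were called, 2 higher and 4 lower, where 19.4% of all genes tested were, 6.84% higher and 12.6% lower. In no tissue was the number of members called far from what its background share gives, so the counts themselves are no result about these genes. Psat1 and Vldlr in liver and Cth in bone marrow and spleen were below the filter on dim genes and were not tested. Over the tested members the liver median change was 0.18, that of bone marrow -0.18 and that of spleen -0.05, and over all genes these medians were -0.03, -0.01 and -0.01. Counted by gene, 8 members were called in at least 1 tissue, 2 of them in 2 tissues (Chac1 and Atf5, both in liver and spleen) and 4 in 1 tissue. The other 29 were called in none.

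**Figure D1:**
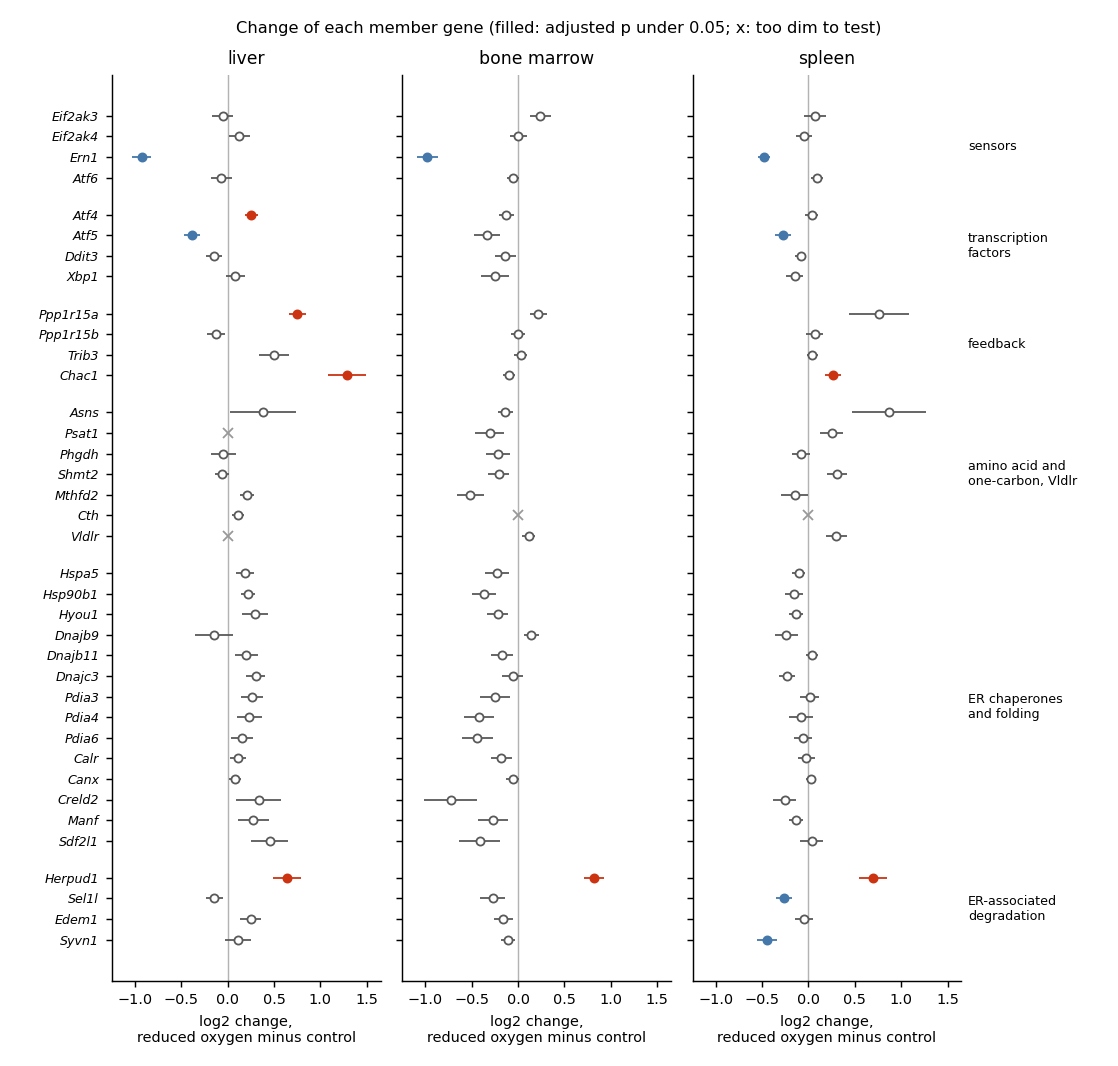
Log2 change, reduced oxygen minus control, of each of the 37 genes in liver, bone marrow and spleen, grouped by role. Points are limma estimates with 1 standard error to each side, filled where the adjusted p was under 0.05, and a cross marks a gene too dim to test. Ern1 lies far to the left in all 3 tissues and Herpud1 to the right, while 13 of the 14 chaperones lie to the right of 0 in liver and 13 of 14 to the left in bone marrow, none of them filled.

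Herpud1, which encodes a membrane protein of the ER that serves the degradation of misfolded proteins, rose in each tissue. In bone marrow the controls stood at 9.95, 10.28 and 10.27 and the reduced oxygen arrays at 11.15, 10.96, 11.02 and 10.79, so the groups did not overlap. The change there was 0.82 ± 0.11 (SE, 1.76-fold, adjusted p = 0.00507). In spleen the controls had a lowest value of 9.91, a median of 10.34 and a highest of 10.59, and the reduced oxygen arrays 10.36, 11.02 and 11.63. Of the 8 reduced oxygen spleens 7 lay above every control, and the change was 0.70 ± 0.15 (adjusted p = 0.00317). In liver the controls ran from 11.89 through a median of 12.49 to 13.26 and the reduced oxygen arrays from 12.95 through 13.18 to 13.50. The liver groups overlapped, with 2 of 8 reduced oxygen arrays above every control, and the change was 0.64 ± 0.15 (adjusted p = 0.00788). Its other probe set, 1435626_a_at, gave 0.70, 0.77 and 0.64 in liver, bone marrow and spleen. The liver rise was uneven between replicates, at 0.96 within replicates 1 to 4 (adjusted p = 0.00485) and 0.32 within replicates 5 to 8 (adjusted p = 0.186).

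Ern1, the gene of the sensor IRE1, fell in each tissue by its brightest probe set, 1437119_at. In bone marrow the controls stood at 9.22, 8.76 and 9.01 and the reduced oxygen arrays at 7.88, 8.08, 7.97 and 8.14. In liver the controls had a lowest value of 9.74, a median of 9.87 and a highest of 10.32, and the reduced oxygen arrays 8.75, 8.91 and 9.38. The spleen controls ran from 8.58 through 8.79 to 8.97 and the reduced oxygen spleens from 8.18 through 8.32 to 8.48. The groups did not overlap in any of the 3 tissues. The change was -0.98 ± 0.11 in bone marrow (SE, adjusted p = 0.00242), -0.93 ± 0.10 in liver (adjusted p = 4.31e-06) and -0.48 ± 0.07 in spleen (adjusted p = 7.13e-05).

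The other Ern1 probe sets did not repeat this in every tissue. In tests over 24470 probe sets per tissue, of which 10.7%, 6.13% and 20.6% were called in liver, bone marrow and spleen, 1437119_at was called in all 3 tissues. The next brightest in liver, 1438583_at, fell there by 0.38 ± 0.10 (adjusted p = 0.021), from 6.79 ± 0.19 to 6.41 ± 0.22 (SD, n = 8 each), with overlapping groups. In bone marrow 1438583_at stood at -0.05 ± 0.07 (adjusted p = 0.712), and in spleen at 0.11 ± 0.08 (adjusted p = 0.393). Another probe set, 1421240_at, gave values of -0.06 ± 0.11, 0.17 ± 0.07 and 0.08 ± 0.06 for liver, bone marrow and spleen, none of them called (lowest adjusted p = 0.201). In bone marrow its 4 reduced oxygen arrays, at 6.94 to 7.13, all lay above the 3 controls, at 6.80 to 6.93. The remaining 2 were dim: 1431886_at passed the filter in liver alone, at -0.15 ± 0.09 (adjusted p = 0.333), and 1450176_at passed it in no tissue. The platform annotation ties 1421240_at and 1450176_at to a RefSeq transcript, and the other 3, 1437119_at included, to other GenBank records. By the mean over all 5 probe sets the change was -0.34 in liver (adjusted p = 0.000217), -0.22 in bone marrow (adjusted p = 0.049) and -0.04 in spleen (adjusted p = 0.484). Which Ern1 transcripts each probe set reads was not tested.

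**Figure D2:**
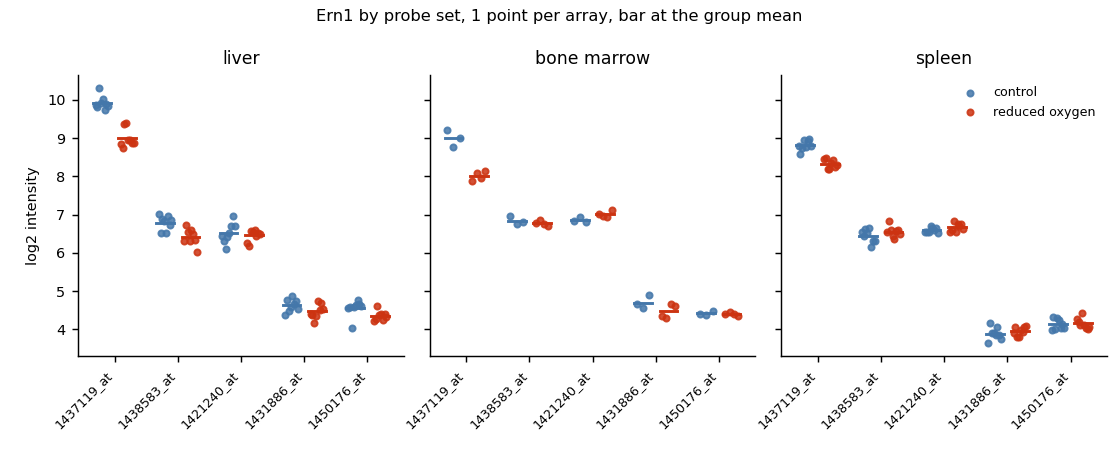
Log2 intensity of Ern1 by probe set in liver, bone marrow and spleen, with 1 point per array and a bar at the group mean, controls in blue and reduced oxygen in red. The brightest probe set, with a mean of 9.92 in control liver, separates the groups in each tissue, and the others overlap except 1421240_at in bone marrow.

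To set these changes beside the sequence of the genes, the 250 bases before the annotated start of transcription were searched on both strands for 6 short motifs. ERSE (CCAAT and CCACG with any 9 bases between them) and ERSE-II (ATTGG and CCACG with any 1 base between them) are the textbook elements of ATF6 and XBP1 targets, CARE (TGATGNAA) is the textbook element of ATF4 targets, CRE (TGACGTCA) is the element of the CREB family, and ACGTG and GCGTG are the core of hypoxia response elements. The last letters of ERSE and ERSE-II can overlap a core match on the other strand, as in Herpud1. The windows of 4 genes are shown, from RefSeq on build GRCm38.p6 and in the direction of transcription: the 2 genes called in all 3 tissues, Chac1, which had the largest rise in liver, and Hspa5 as the best known ERSE carrier. Capitals mark matches to ERSE, ERSE-II and CARE.
Herpud1 (chr8:94386179-94386428, plus strand): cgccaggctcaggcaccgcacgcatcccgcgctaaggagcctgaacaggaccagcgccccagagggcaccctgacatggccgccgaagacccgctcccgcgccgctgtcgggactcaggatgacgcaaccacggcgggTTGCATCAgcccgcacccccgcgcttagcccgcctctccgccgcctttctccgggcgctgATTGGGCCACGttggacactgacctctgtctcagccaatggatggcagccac
Ern1 (chr11:106487797-106488046, minus strand): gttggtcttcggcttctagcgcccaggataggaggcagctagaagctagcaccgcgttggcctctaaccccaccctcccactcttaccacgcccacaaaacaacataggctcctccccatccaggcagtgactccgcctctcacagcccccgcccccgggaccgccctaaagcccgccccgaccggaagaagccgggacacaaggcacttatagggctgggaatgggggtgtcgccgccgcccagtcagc
Chac1 (chr2:119350992-119351241, plus strand): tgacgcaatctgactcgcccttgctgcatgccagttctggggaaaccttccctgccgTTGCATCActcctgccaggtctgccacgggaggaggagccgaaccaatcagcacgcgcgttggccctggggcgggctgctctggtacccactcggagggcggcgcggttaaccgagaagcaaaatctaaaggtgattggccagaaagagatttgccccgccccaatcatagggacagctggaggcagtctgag
Hspa5 (chr2:34771840-34772089, plus strand): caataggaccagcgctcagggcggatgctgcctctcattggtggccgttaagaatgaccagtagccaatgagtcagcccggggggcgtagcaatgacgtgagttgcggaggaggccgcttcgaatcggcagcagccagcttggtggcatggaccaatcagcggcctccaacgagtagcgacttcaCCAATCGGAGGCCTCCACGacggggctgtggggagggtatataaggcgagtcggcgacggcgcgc

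The Herpud1 window holds an ERSE-II match 52 to 42 bases before the start and a CARE match, read on the other strand as TTGCATCA, 112 to 105 bases before it. The Chac1 window holds a CARE match at 193 to 186 bases and no ERSE. The Hspa5 window holds ERSE at 65 to 47 bases. In the Ern1 window only the core GCGTG was found, on the other strand at 163 to 159 bases, which says nothing of sites elsewhere. RefSeq windows were at hand for 32 members, 36 windows in all with alternative starts. ERSE was in 8 of these (22.2%), those of Calr, Canx, Creld2, Dnajc3, Hsp90b1, Hspa5, Pdia6 and Syvn1, and in 0.113% of the 32851 windows of all genes. ERSE-II was in the Herpud1 window alone among the members and in 0.0304% of all windows. CARE was in those of Asns, Chac1, Herpud1 and Vldlr (11.1%, against 3.45% of all windows), and CRE in that of Ppp1r15a (1 of 36, 2.78%, against 1.55%). The cores ACGTG and GCGTG were in 22.2% and 61.1% of the member windows, against 16.6% and 28.2% of all. Of the 8 genes with ERSE, Syvn1 in spleen was the 1 called in a tissue, and it fell. ERSE, ERSE-II and CARE are textbook elements of such targets, and the members were picked as genes of these responses. Their higher shares among the members were thus likely beforehand and are no result. A match describes letters and does not show that a factor bound there.

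By their brightest probe sets the other sensors did not pass the test in any tissue in the fit without further terms. In liver, bone marrow and spleen Eif2ak3 stood at -0.05 ± 0.11, 0.24 ± 0.11 and 0.07 ± 0.12, Atf6 at -0.07 ± 0.11, -0.06 ± 0.06 and 0.09 ± 0.06, and Eif2ak4 at 0.12 ± 0.11, 0.00 ± 0.09 and -0.05 ± 0.09 (lowest adjusted p = 0.228, for Eif2ak3 in bone marrow). With the B cell marker level as a term, Eif2ak3 was called higher in spleen (0.31 ± 0.06, adjusted p = 0.00204). With the mean over all probe sets of a gene, Eif2ak4 was called in liver. The dimmer probe sets of Atf6 stood above 0 in liver with no call. These were 1456021_at at 0.26 ± 0.10 (adjusted p = 0.133) and 1453288_at at 0.26 ± 0.12 (adjusted p = 0.19). For Eif2ak4 the dimmer probe set, 1443235_at, gave another picture. It rose by 0.29 ± 0.10 in spleen (adjusted p = 0.0465) and stood at 0.45 ± 0.13 in bone marrow (adjusted p = 0.0881). In liver it was below the filter, at a mean of 4.21, and limma without the filter gave 0.50 ± 0.13 (adjusted p = 0.0175).

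Among the transcription factors, Atf4 and Atf5 were called in liver, in opposite directions. ATF4 is the central factor of the integrated stress response, and ATF5 a related factor of stress responses that ATF4 induces. Atf4 in liver stood at 10.04, 10.18 and 10.24 in the controls (lowest, median and highest) and at 10.21, 10.38 and 10.64 under reduced oxygen, with 6 of 8 arrays above every control. It rose by 0.26 ± 0.07 (adjusted p = 0.0283). That call was lost within replicates 5 to 8 (0.16, adjusted p = 0.135), with arrays centred on their median (0.26, adjusted p = 0.0707) and with the mean of its probe sets. Of the dimmer probe sets, 1438992_x_at rose in liver by 0.48 ± 0.15 (adjusted p = 0.0499). The dimmest, 1439258_at, stood there at -0.10 ± 0.07 (adjusted p = 0.486). In bone marrow Atf4 read 11.52, 11.53 and 11.22 in the controls and 11.31, 11.33, 11.29 and 11.27 under reduced oxygen, a change of -0.13 ± 0.08 (adjusted p = 0.379). In spleen the controls ran from 10.89 through 11.06 to 11.38 and the reduced oxygen arrays from 11.00 through 11.07 to 11.34, a change of 0.03 ± 0.07 (adjusted p = 0.798). The groups overlapped in both. The liver value did not differ by the test from that of bone marrow (adjusted p = 0.0887) or spleen (adjusted p = 0.136).

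Atf5 fell in liver, from 11.06, 11.29 and 11.74 in the controls to 10.82, 10.95 and 11.05, by 0.39 ± 0.08 (adjusted p = 0.00484). All 8 reduced oxygen livers lay below every control. In spleen it fell by 0.27 ± 0.09 (adjusted p = 0.0363), from 7.52, 7.90 and 8.12 to 7.26, 7.64 and 7.81, with overlapping groups. The bone marrow controls read 8.07, 7.90 and 7.45 and the reduced oxygen arrays 7.63, 7.43, 7.33 and 7.47, a change of -0.34 ± 0.14 (adjusted p = 0.179). Within replicates 1 to 4 the liver value was -0.48 (adjusted p = 0.0606) and the spleen value -0.16 (adjusted p = 0.613).

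Ddit3, which encodes the death-linked factor CHOP and is a classic marker of PERK signalling, was not called in any tissue. In liver it ran from 7.27 through 7.34 to 7.56 in the controls and from 6.90 through 7.25 to 7.59 under reduced oxygen (-0.15 ± 0.09, adjusted p = 0.328). In bone marrow it read 8.56, 8.95 and 8.97 against 8.50, 8.79, 8.72 and 8.74 (-0.14 ± 0.11, adjusted p = 0.494), and in spleen 8.28, 8.51 and 8.64 against 8.27, 8.41 and 8.50 (-0.09 ± 0.06, adjusted p = 0.315). The groups overlapped in each tissue, and the 95% confidence intervals reached no higher than 0.04, 0.12 and 0.03. Xbp1 was likewise not called, at 0.08 ± 0.10 in liver (adjusted p = 0.696), -0.25 ± 0.15 in bone marrow (adjusted p = 0.366) and -0.15 ± 0.09 in spleen (adjusted p = 0.263). Its liver values ran from 11.83 through 12.06 to 12.22 in the controls and from 11.57 through 12.15 to 12.37 under reduced oxygen. The bone marrow values were 12.17, 11.89 and 11.68 against 11.92, 11.62, 11.34 and 11.78, and the spleen values 11.27, 11.74 and 11.97 against 11.42, 11.51 and 11.79. Total Xbp1 signal, as read here, does not separate spliced from unspliced transcript.

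The feedback genes of the integrated stress response held the largest rise in liver. Of 4 tested there, 2 rose, and their median change was 0.63. Chac1, which encodes a glutathione-degrading enzyme and is a target of ATF4, stood at 6.56, 7.49 and 8.44 in the control livers and at 8.49, 8.84 and 9.24 under reduced oxygen. The groups did not overlap, and the rise of 1.29 ± 0.20 (SE, 2.44-fold, adjusted p = 0.000241) was the largest of any member in any tissue. It was 1.68 within replicates 1 to 4 and 0.89 within replicates 5 to 8, called in both. In spleen Chac1 rose by 0.27 ± 0.09 (adjusted p = 0.0481), from 5.49, 5.79 and 6.13 to 5.86, 6.06 and 6.43, with overlapping groups. The spleen call held in neither set of arrays alone, at 0.21 (adjusted p = 0.185) within replicates 1 to 4 and 0.32 (adjusted p = 0.153) within replicates 5 to 8. In bone marrow it read 7.08, 6.92 and 6.99 against 6.92, 6.95, 6.80 and 6.95, a change of -0.09 ± 0.07 (adjusted p = 0.416).

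Ppp1r15a, which encodes GADD34, the subunit that directs a phosphatase to eIF2 and so ends the response, rose in liver from 7.45, 7.62 and 7.81 to 8.14, 8.28 and 8.75. These groups did not overlap, and the rise was 0.75 ± 0.09 (1.68-fold, adjusted p = 1.08e-05). In bone marrow the values were 10.92, 11.29 and 11.06 in the controls and 11.21, 11.26, 11.38 and 11.38 under reduced oxygen (0.22 ± 0.09, adjusted p = 0.189). The spleen estimate was as large as that in liver, at 0.76 ± 0.33, but did not pass the test (adjusted p = 0.116), since the controls there ran from 8.76 through 9.79 to 11.61 and the reduced oxygen arrays from 10.04 through 10.70 to 11.59. Ppp1r15b, its constitutive counterpart, stood in liver at -0.13 ± 0.09, in bone marrow at 0.00 ± 0.08 and in spleen at 0.07 ± 0.09, with no call.

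Trib3, a pseudokinase gene induced by ATF4 and CHOP, lay just past the threshold in liver, at 0.50 ± 0.16 (adjusted p = 0.052). Its control livers stood at 6.67, 7.17 and 7.96 and its reduced oxygen livers at 7.32, 7.76 and 8.14, with overlap. With the replicate number as a block, the adjusted p of Trib3 was 0.0012 and the liver count became 7, where 18.7% of all genes were called. Liver passed the rule on pairing, but that check cannot tell pairs from a difference between replicates 1 to 4 and 5 to 8. With that difference as a term the adjusted p of Trib3 was 0.0355. In bone marrow Trib3 read 6.15, 6.23 and 6.22 against 6.24, 6.11, 6.35 and 6.22 (0.03 ± 0.07, adjusted p = 0.838), and in spleen 5.49, 5.70 and 5.93 against 5.71, 5.75 and 5.91 (0.04 ± 0.06, adjusted p = 0.69).

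**Figure D3:**
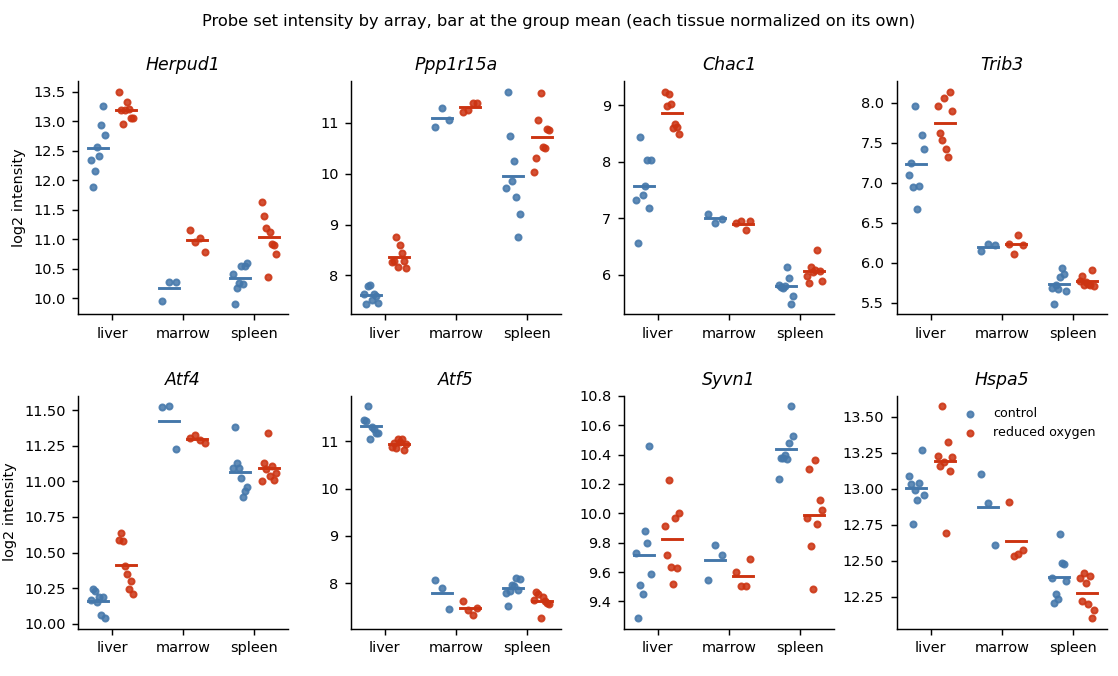
Log2 intensity by array of 8 members in liver, bone marrow and spleen, with a bar at the group mean, controls in blue and reduced oxygen in red. Levels are comparable within a tissue and a gene only. Liver Chac1 and Ppp1r15a and bone marrow Herpud1 separate the groups upward and liver Atf5 downward, while Hspa5 overlaps in every tissue.

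None of the 6 genes of amino acid and one-carbon supply nor Vldlr was called in any tissue by the limma fit without further terms. At an unadjusted p under 0.05 there was 1 in liver (of 5 tested), 1 in bone marrow (of 6) and 3 in spleen (of 6). Of the 12736 genes tested in each tissue, 3112, 3148 and 4046 were at that level, in the same order. Asns, which encodes asparagine synthetase and is a standard ATF4 target, spread widely within groups. In liver it ran from 6.31 through 7.83 to 8.79 in the controls and from 6.62 through 8.18 to 9.41 under reduced oxygen (0.38 ± 0.36, adjusted p = 0.583). In spleen it ran from 6.71 through 9.09 to 9.64 and from 8.62 through 9.52 to 10.49 (0.87 ± 0.40, adjusted p = 0.141). Bone marrow was tighter, with 10.60, 10.65 and 10.32 against 10.40, 10.32, 10.41 and 10.40 (-0.14 ± 0.08, adjusted p = 0.351). Mthfd2, a mitochondrial folate enzyme, came nearest to a call in bone marrow, where the controls at 10.17, 9.92 and 9.50 lay above the reduced oxygen arrays at 9.49, 9.30, 9.21 and 9.41 (-0.52 ± 0.14, adjusted p = 0.0672). In liver Mthfd2 stood at 0.21 ± 0.08 (adjusted p = 0.0914) by its brightest probe set and rose by 0.53 ± 0.12 (adjusted p = 0.00647) by its other one. In spleen Shmt2 stood at 0.31 ± 0.11 (adjusted p = 0.057), Vldlr at 0.30 ± 0.11 (adjusted p = 0.0724) and Psat1 at 0.25 ± 0.13 (adjusted p = 0.187). Other fits called some of these 7. Within spleen replicates 5 to 8 alone Asns (1.62, adjusted p = 0.0251) and Shmt2 (0.52, adjusted p = 0.0112) were called higher. Shmt2 was also called with replicates 1 to 4 against 5 to 8 as a term, and so was Mthfd2 in liver. In spleen Mthfd2 was called lower with the erythroid (-0.32, adjusted p = 0.0344) or the B cell marker level (-0.43, adjusted p = 0.00617) as a term, and Vldlr higher with the erythroid level (0.38, adjusted p = 0.0164). In bone marrow Mthfd2 was called lower with the replicate block (-0.54, adjusted p = 0.0299) and without control 3. Phgdh, the first enzyme of serine synthesis, lay between -0.22 and -0.05 in the 3 tissues by brightest probe set. That was 1454714_x_at in spleen and 1426658_x_at in liver and bone marrow, and by 1426658_x_at the spleen change was 0.08. Cth was measured in liver alone, at 0.11 ± 0.07.

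The 14 chaperones and folding enzymes showed no called member, but their estimates leaned to opposite sides in liver and bone marrow. In liver 13 of 14 estimates lay above 0, with a median of 0.22 against -0.03 for all genes, and limma called none, with 4 at an unadjusted p under 0.05. In bone marrow 1 of 14 lay above 0, with a median of -0.24, again with no call and 4 at an unadjusted p under 0.05. In spleen 4 of 14 lay above 0, with a median of -0.10 and 1 at an unadjusted p under 0.05. Chaperone transcripts are known to rise and fall together and come from the same arrays, so these counts describe the arrays and are not 14 separate observations.

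The lean in bone marrow and spleen rested in part on single arrays or sets. Without bone marrow control 1, 3 of 14 lay above 0 and the median was -0.10. Without reduced oxygen 3, 2 of 14 lay above 0. In spleen 8 of 14 lay above 0 within replicates 1 to 4 and 1 of 14 within replicates 5 to 8. In liver 14 of 14 lay above 0 within replicates 1 to 4 and 12 of 14 within replicates 5 to 8. Both sets hold livers of low and of high neutrophil markers, and several of the chaperones differed between these. Hyou1 (control mean 9.85) read 9.80, 9.75 and 9.52 in reduced oxygen 1, 2 and 5, the low ones, and 10.28 to 10.80 in the others. Pdia6 (control mean 11.20) read 11.06, 11.05 and 11.02 against 11.31 to 11.82. Pdia4 (control mean 9.74) read 9.57, 9.49 and 9.86 against 9.88 to 10.47. Sdf2l1 (control mean 9.13) read 8.77, 9.03 and 9.17 against 9.58 to 10.42. For Pdia3, Dnajc3 and Creld2 the low ones also lay below all the other reduced oxygen livers. Hsp90b1 did not split this way, with 12.75, 12.85 and 12.46 against 12.69 to 13.04. Nor did Hspa5, Manf, Dnajb11, Dnajb9, Calr and Canx. The part of neutrophils was not tested. Other fits called some of the chaperones. In liver Dnajc3 and Hsp90b1 were called with quantile normalization, with a robust variance prior and with replicates 1 to 4 against 5 to 8 as a term. With the replicate block in bone marrow, where the numbers did not pair the arrays, Creld2, Hsp90b1, Pdia4, Pdia6 and Sdf2l1 were called lower. In spleen quantile normalization called Dnajc3 and the mean over all probe sets of a gene called Canx. Within spleen replicates 5 to 8 alone, where 25.9% of all genes were called, 3 were called lower. These were Dnajb9 at -0.52 (adjusted p = 0.00256), Dnajc3 at -0.46 (adjusted p = 0.00542) and Hspa5 at -0.29 (adjusted p = 0.0467).

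Hspa5, which encodes BiP, the main ER chaperone and the usual readout of the unfolded protein response, stood in liver at 12.75, 13.01 and 13.27 in the controls and at 12.69, 13.20 and 13.57 under reduced oxygen (0.18 ± 0.10, adjusted p = 0.272). In bone marrow it read 13.10, 12.90 and 12.61 against 12.91, 12.53, 12.54 and 12.57 (-0.23 ± 0.13, adjusted p = 0.328), and in spleen 12.20, 12.37 and 12.68 against 12.10, 12.28 and 12.42 (-0.11 ± 0.07, adjusted p = 0.336). The groups overlapped in each tissue. The 95% confidence intervals of the change were -0.02 to 0.39, -0.53 to 0.07 and -0.26 to 0.05, in the same order. By brightest probe set Dnajc3 and Hsp90b1 came nearest to a call in liver. Dnajc3, an inhibitor of the eIF2 kinases that acts as a co-chaperone, stood at 0.30 ± 0.10 (adjusted p = 0.0592). Hsp90b1, the chaperone GRP94, stood at 0.22 ± 0.08 (adjusted p = 0.0839). A dimmer probe set of Dnajc3, 1419162_s_at, was called higher in liver (0.32 ± 0.10, adjusted p = 0.047), and the others stood there at 0.28 to 0.33 with no call. Sdf2l1, Creld2 and Manf, small ER stress proteins, had liver estimates of 0.45 ± 0.20, 0.34 ± 0.24 and 0.28 ± 0.17. The estimate farthest from 0 among the chaperones was that of Creld2 in bone marrow, with controls at 10.28, 9.71 and 9.09 and reduced oxygen arrays at 9.53, 8.88, 8.65 and 8.81 (-0.73 ± 0.28, adjusted p = 0.159). A dimmer probe set of Canx, 1428935_at, was called higher in liver (0.26 ± 0.08, adjusted p = 0.0457) and spleen (0.48 ± 0.10, adjusted p = 0.00244), where its brightest stood at 0.08 and 0.02.

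In ER-associated degradation, Syvn1 and Sel1l fell in spleen while Herpud1 rose. They encode the ubiquitin ligase HRD1 and its partner, the complex in which the Herpud1 product also works. Syvn1 in spleen stood at 10.23, 10.39 and 10.73 in the controls and at 9.48, 9.997 and 10.36 under reduced oxygen, with 6 of 8 arrays below every control. It fell by 0.44 ± 0.11 (adjusted p = 0.00682), and its other probe set by 0.38 ± 0.12 (adjusted p = 0.0374). Sel1l in spleen fell by 0.26 ± 0.09 (adjusted p = 0.0386), from 9.40, 9.69 and 10.08 to 9.30, 9.41 and 9.61, with overlap. Sel1l stood at -0.50 within replicates 5 to 8 (adjusted p = 0.00401) and at -0.02 within replicates 1 to 4 (adjusted p = 0.939). Its spleen call was lost with the mean over all probe sets of a gene.

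In liver Syvn1 stood at 0.11 ± 0.14 and Sel1l at -0.14 ± 0.09, and in bone marrow at -0.11 ± 0.08 and -0.28 ± 0.13, with no call. By its dimmer probe sets Sel1l stood in liver at 0.07 to 0.26, none of them called. Edem1, which hands misfolded glycoproteins to degradation, was not called by its brightest probe set, at 0.25 ± 0.11 in liver (adjusted p = 0.17), -0.16 ± 0.11 in bone marrow and -0.05 ± 0.10 in spleen. Its other probe set, 1451218_at, fell in spleen by 0.32 ± 0.09 (adjusted p = 0.0166).

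Whether the response differed between tissues was tested in limma as the difference of 2 changes, with the 6 groups in a single fit, so that the pairs of tissues share arrays. Liver differed from spleen for 4 of 34 members, where 9.84% of the 11378 genes tested did. The liver rise of Chac1 exceeded that in spleen by 1.02 ± 0.22 (adjusted p = 0.00168), and the liver fall of Ern1 was deeper than that in spleen, a difference of -0.45 ± 0.12 (adjusted p = 0.0154). Dnajc3 (0.53 ± 0.14, adjusted p = 0.0109) and Syvn1 (0.56 ± 0.17, adjusted p = 0.0303) had a higher change in liver than in spleen. For Dnajc3 that test used 1433887_at, the brightest over both tissues, and by 1449372_at the changes were 0.30 in liver and 0.03 in spleen. Liver differed from bone marrow for 2 of 34, where 2.81% of the 11396 genes tested did. These were Chac1 (1.38 ± 0.28, adjusted p = 0.00232) and Hsp90b1 (0.59 ± 0.16, adjusted p = 0.0355), which stood at 0.22 in liver and -0.37 in bone marrow. All 6 differences kept their call in each alternative run for them. Between spleen and bone marrow 0 of 36 members were called by limma, where 0.264% of the 12124 genes tested were. At an unadjusted p under 0.05 there were 3, with no such count taken over all genes. With variance weights by tissue 2 were called (Ern1 and Shmt2), where 2.48% of all genes tested were. Herpud1 was not among the differences of any pair.

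Spleen values of several members moved with the erythroid markers of the arrays. Control 7, with the lowest erythroid mean (9.06), also had the lowest Asns (6.71) and Ppp1r15a (8.76), and control 2, with the highest (12.42), had the highest values of both among the controls (9.64 and 11.61). Of the 12 erythroid markers tested, with a median change of 0.67, none was called, where 19.4% of all genes tested were. Their summed intensity ran from 13130 to 85909 in the controls and from 32525 to 81620 under reduced oxygen, and the defining markers Alas2, Klf1 and Slc4a1 had lowest values of 12.40, 8.27 and 11.09 among the spleen arrays. With the erythroid mean as a term in the fit, the spleen estimate of Asns went from 0.87 to 0.30 ± 0.17 (adjusted p = 0.243) and that of Ppp1r15a from 0.76 to 0.27 ± 0.09 (adjusted p = 0.0533). Within replicates 5 to 8, which hold the 3 control spleens of lowest erythroid level, both were called, at 1.62 (adjusted p = 0.0251) and 1.26 (adjusted p = 0.00905), and within replicates 1 to 4 they stood at 0.12 and 0.26. Whether red cell precursors carry these values was not tested.

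**Figure D4:**
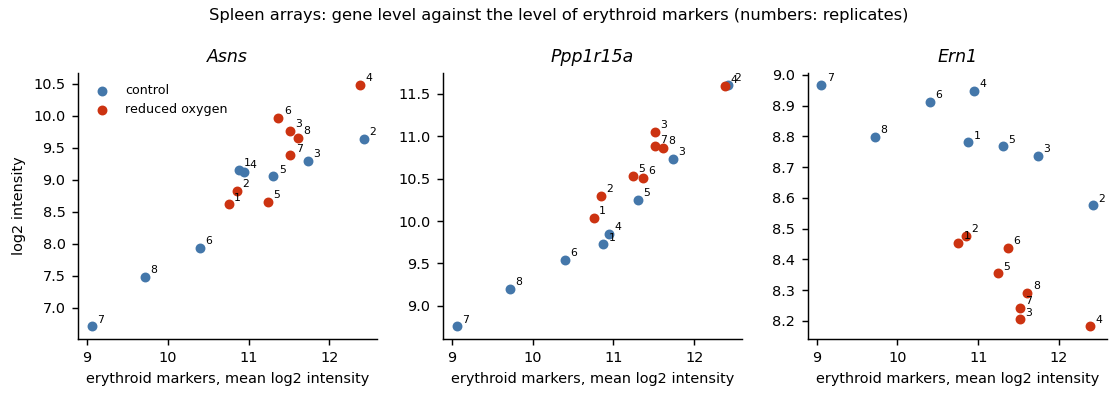
Spleen arrays, with the mean log2 intensity of the 12 erythroid markers on the horizontal axis and the log2 intensity of Asns, Ppp1r15a and Ern1 on the vertical axis, numbered by replicate, controls in blue and reduced oxygen in red. Asns and Ppp1r15a climb with the erythroid level in both groups, from 6.71 and 8.76 in control 7, while Ern1 stays below 8.5 in all 8 reduced oxygen arrays at every erythroid level.

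With the erythroid or the B cell marker level as a term, 3 of the 6 spleen calls were lost and others were gained. With the erythroid term Ern1 (-0.41 ± 0.05, adjusted p = 3.9e-05), Herpud1 (0.86 ± 0.12, adjusted p = 6.59e-05) and Syvn1 (-0.35 ± 0.10, adjusted p = 0.0128) kept their calls. With the B cell level as a term the same 3 were called, Syvn1 at -0.25 ± 0.08 (adjusted p = 0.0337). Atf5 (-0.19 and -0.14 with the erythroid and the B cell term), Chac1 (0.21 and 0.21) and Sel1l (-0.20 and -0.21) lost theirs with either term, with adjusted p of 0.0822 to 0.235. Gained were Mthfd2, lower with either term, Vldlr, higher with the erythroid term, and Eif2ak3, higher with the B cell term. B cell markers were 3 of 9 lower in spleen, where 12.6% of all genes tested were lower. Their estimates lay below 0 for 9 of 9, with a median change of -0.52. The summed intensity of the B cell markers was 21723 to 35141 in the controls and 8434 to 29378 under reduced oxygen. Neutrophil markers were 4 of 14 higher in spleen, where 6.84% of all genes tested were. Of their estimates 14 of 14 lay above 0, with a median of 1.05. The summed intensity of the neutrophil markers was 11126 to 33437 in the controls and 8769 to 83161 under reduced oxygen. No fit had the neutrophil level as a term, so its part in the spleen calls was not tested. Without the 2 arrays with acinar markers 5 of the 6 remained, and Sel1l was lost (adjusted p = 0.0543). Within replicates 1 to 4 alone, where 3.78% of all genes were called, none of the 36 was called by limma, with 5 at an unadjusted p under 0.05. How many of all genes reached that unadjusted level was not counted for this set. Ern1 (-0.43, adjusted p = 0.0696) and Herpud1 (0.95, adjusted p = 0.077) came closest there. Within replicates 5 to 8 alone, where 25.9% of all genes were called, 12 were, without Chac1 and with Asns, Dnajb9, Dnajc3, Hspa5, Ppp1r15a, Shmt2 and Xbp1 added.

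Beyond the 37 members, 113 other genes of the same pathways were listed, of which 107 had a probe set. In liver 5 of 103 tested were higher and 5 lower, in bone marrow none of 105 was higher and 2 were lower, and in spleen 8 of 105 were higher and 8 lower. Of all genes tested, 3.88% were higher and 7.22% lower in liver, 2.76% and 4.92% in bone marrow, and 6.84% and 12.6% in spleen. These are the shares to read the list counts against. The median change was 0.05, -0.03 and 0.04. Among the 26 genes of sensing, processing and eIF2, several factors that pair with ATF4 or stand beside it moved most. Cebpb, which encodes the stress and acute phase factor C/EBP beta, rose in liver from 11.16 ± 0.29 to 12.40 ± 0.17 (SD, n = 8 each), by 1.24 ± 0.11 (SE, adjusted p = 2.16e-07). In spleen it rose from 9.20 ± 0.25 to 10.48 ± 0.45, by 1.27 ± 0.17 (adjusted p = 5.1e-05). Neither pair of groups overlapped. Neutrophil markers were also higher, 4 of 10 tested in liver and 4 of 14 in spleen, and their part in the rise of Cebpb was not tested.

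Cebpg, a partner of ATF4 in binding CARE sites, fell in spleen by 1.08 ± 0.09 (adjusted p = 5.72e-07), from 9.16 ± 0.06 to 8.07 ± 0.26, and in bone marrow by 0.91 ± 0.07 (adjusted p = 0.000431). Nck1, an adaptor that works with the phosphatase of eIF2, fell by 0.70 ± 0.09 in spleen (adjusted p = 3.57e-05) and by 0.73 ± 0.10 in bone marrow (adjusted p = 0.0054). The groups of both genes did not overlap in either tissue. Atf3, a stress-induced factor, rose in liver by 0.75 ± 0.12 (adjusted p = 0.000378), while Crebrf fell by 0.56 ± 0.13 (adjusted p = 0.00883) and Creb3l2 by 0.44 ± 0.12 (adjusted p = 0.0199). In spleen Eif2b1, a subunit of the eIF2 exchange factor, rose by 0.31 ± 0.10 and Mbtps1, the protease that cleaves ATF6, fell by 0.16 ± 0.05.

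Of 32 other targets of the integrated stress response, 5 were higher in spleen and none lower, with 25 of 29 estimates above 0 and a median of 0.10. Bbc3, which encodes the cell death protein PUMA, rose there by 0.92 ± 0.14 (adjusted p = 0.000202), Eif4ebp1, a brake on translation, by 0.54 ± 0.14, the asparagine tRNA ligase gene Nars by 0.31 ± 0.08, the arginine carrier gene Slc7a1 by 0.29 ± 0.09 and Sesn2 by 0.24 ± 0.07 (adjusted p of the last 4 up to 0.0242). In liver Gpt2, an alanine transaminase, rose by 0.63 ± 0.14 (adjusted p = 0.00614) and Slc7a1 by 0.44 ± 0.08 (adjusted p = 0.00149). Bbc3 fell there by 0.50 ± 0.10 (adjusted p = 0.00158), and Shmt1 by 0.35 ± 0.08 (adjusted p = 0.00482). Bbc3 thus moved in opposite directions in liver and spleen. In bone marrow none of 29 was called by limma, with 6 at an unadjusted p under 0.05, where 3148 of all 12736 genes tested were.

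Of 55 other genes of ER folding, redox, degradation and translocation, the liver called 1 in each direction. The oxidase gene Ero1a, a known hypoxia target, rose by 0.66 ± 0.15 (adjusted p = 0.00741), and Rnf139 fell by 0.29 ± 0.09 (adjusted p = 0.0468). In spleen 1 was higher, Stt3b at 0.17 ± 0.06, and 5 were lower. Among these, Ero1b, an oxidase rich in secretory cells, fell by 0.56 ± 0.14 (adjusted p = 0.00925), Hspa13 by 0.38 ± 0.10 (adjusted p = 0.0132) and Rnf5, a ubiquitin ligase, by 0.27 ± 0.06 (adjusted p = 0.00255). Derl2 and Edem3 of the degradation machinery fell by 0.26 ± 0.07 and 0.18 ± 0.06. Bone marrow called none of 52, with 8 at an unadjusted p under 0.05, where 3148 of all 12736 genes tested were. Plasma cells are known for a large ER. In spleen 1 of 9 plasma cell markers was lower, where 12.6% of all genes tested were. Of the 9 estimates 8 lay below 0, with a median of -0.17. At an unadjusted p under 0.05, 4 were lower and 1 higher, where 2399 and 1647 of all 12736 genes tested were. The 9 include Xbp1, which is also one of the 37 members, and the summed intensity of the 8 others was 16661 to 22634 in the controls and 12419 to 20408 under reduced oxygen. In bone marrow it was 5549.7 to 8125 and 6675 to 8238, with no marker called. The part of plasma cells in the spleen falls was not tested.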

How the data were processed

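RNA of liver, bone marrow and spleen was hybridised to 39 Affymetrix arrays. The deposited values are linear probe set intensity values, for which the submitters' processing notes name RMA and limma with no version, role or order. Arrays of a tissue had almost the same quantiles and those of different tissues did not, so levels were only set side by side inside a tissue. No offset was added before log2. Of 45101 probe sets, 64 were controls and 34958 had 1 gene symbol in the platform annotation (932 had several, 9211 none).

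Each of 18194 genes took its probe set of highest mean in the tissue, and genes below the 30th percentile were left out as dim, leaving 12736. A model without covariates was fitted per tissue in R 4.3.3 with limma 3.58.1 (functions lmFit and eBayes, tests two-sided) and data.table version 1.17.8, and p was adjusted by Benjamini-Hochberg over all genes tested. Every adjusted p comes from limma, and a ± beside a change gives the standard error. Contrasts between tissues came from 1 fit of 6 groups, on genes past the filter in both. Ern1 was also tested over 24470 probe sets. The fits were tested on simulated data. The number of arrays limits the precision.

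Arrays with the same replicate number were checked for deviations that go together. In liver all 8 correlations across genes were above 0.1 (0.166 to 0.535), which passes the rule used for pairing. In bone marrow they ran from -0.03 to 0.32 and in spleen from -0.48 to 0.31, which does not. The median log2 intensity of liver arrays was 5.21 to 5.26 in replicates 1 to 4 and 5.31 to 5.33 in replicates 5 to 8. A difference between these sets also raises same-number correlations, so the check cannot tell it from pairs. The titles give the numbers but state no shared animal or batch. Alternatives covered the probe set, filter, scaling, variance prior, block, replicates 1 to 4 and 5 to 8, and single arrays in bone marrow. The fits with marker levels as a term and without the 2 spleen arrays with acinar markers were chosen after seeing the data. The 37 members and all gene lists were chosen with earlier results of these data known. Named were all members called, a fixed set of 8 others, every Ern1 probe set and, per list of other pathway genes, the called ones of smallest p, up to 6. Promoter windows came from RefSeq on GRCm38.p6. The array files name no genome build.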

Additional observations from a re-analysis of the deposited data

Results flagged for a closer look

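Single arrays stood far from the rest of their group for 12 of 205 sets of values tested by the gap to the nearest array over the range. Chance gives about 1 in 20, so a number like this is near what chance alone would give. In liver these were Eif2ak3 at 8.37 in control 7 (others up to 7.98), Xbp1 at 11.57 in reduced oxygen 5 (others from 12.02), and the dim Ern1 probe set 1450176_at at 4.04 in control 3 and 4.62 in reduced oxygen 3. In bone marrow they were Asns at 10.32 in reduced oxygen 2, Hspa5 at 12.91 in reduced oxygen 1 (others up to 12.57) and Edem1 at 10.11 in reduced oxygen 3. Spleen reduced oxygen 4, the array with the highest erythroid and lowest B cell level of its group, stood apart for Atf4 (11.34), Atf5 (7.26) and Pdia4 (8.98). Psat1 was at 8.85 in spleen reduced oxygen 6, and the Ern1 probe set 1438583_at was at 6.84 in spleen reduced oxygen 2.

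The response differed between tissues, by the interaction test in limma, for 6 pairs of gene and tissues. Chac1 in liver exceeded bone marrow by 1.38 and spleen by 1.02, Hsp90b1 in liver exceeded bone marrow by 0.59, and Dnajc3 and Syvn1 in liver exceeded spleen by 0.53 and 0.56. The Ern1 change in liver minus that in spleen was -0.45.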

How the results depend on the processing

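Counts of called members moved by over 1.5 times in few settings. In liver (6 called, and 11.1% of all genes) replicates 1 to 4 against 5 to 8 as a term gave 10, 8 higher and 2 lower. With that term 20.9% of all genes were called. By probe set, Ern1 was called for 2 probe sets in liver, and for 1 within replicates 1 to 4 and 1 within 5 to 8, and for none in spleen within replicates 1 to 4. In bone marrow (2 called, and 7.69% of all genes) the replicate block gave 10, 1 higher and 9 lower, where 7.38% of all genes were called. The numbers there do not pair the arrays. Leaving out 1 bone marrow array gave 2 to 4, where 3.2% to 7.14% of all genes were called. The 4 came without control 3 (5.1% of all genes), when Atf5 and Mthfd2 were added. In spleen (6 called, and 19.4% of all genes) replicates 1 to 4 alone gave 0 and 5 to 8 alone gave 12. In these 3.78% and 25.9% of all genes were called. The block gave 4 there, without Atf5 and Sel1l, where 15.4% of all genes were called. In liver the block, with 18.7% of all genes called, added Trib3 and changed no other call of a member. Variance weights by tissue gave 9 members that differed between liver and bone marrow and 2 between spleen and bone marrow, where the fit without weights gave 2 and 0. Of all genes 8.31% and 2.48% differed with weights, and 2.81% and 0.264% without. With the mean over all probe sets of a gene, Ern1 (-0.043) and Sel1l lost their spleen calls. Chac1 lost its spleen call with no filter and with centring too. Some estimates changed sign: Atf4 in spleen with quantile normalization (-0.0033), within replicates 1 to 4 (-0.036), and with the erythroid (-0.042) or B cell term (-0.066), Hspa5 (0.071) and Xbp1 (0.024) in spleen within replicates 1 to 4 (both called lower within 5 to 8, at -0.29 and -0.32), Trib3 in spleen within 5 to 8 (-0.046), and Trib3 in bone marrow, at -0.012 to 0.068 when 1 array was left out. The cause of these shifts was not tested. Ern1 and Herpud1 in bone marrow and Chac1, Ppp1r15a and Ern1 in liver kept their calls in every alternative run for them. Dim probe sets limit what can be read of Psat1, Vldlr and Cth.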
